A study of Homo sapiens with 56 samples.

Results

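A set of 9 genes that guide B cells to lymphoid tissue, or hold them there, was followed through 56 RNA-seq libraries made from cultured lines of human mantle cell lymphoma. They were chosen by gene symbol, and all 9 of them (CXCR4, CCR7, CXCR5, S1PR1, GPR183, GPR18, ITGA4, ITGB7 and CD44) were found among the 21595 named genes of the deposited table. The libraries came from 4 established cell lines, with 15 libraries each of MINO-P and JEKO-1 and 13 each of MINO-VR and Z138. Treatments carried the codes CON, CLF, YM155, S63845, IBR and BTZ, and the pairs IBR_CLF, IBR_YM155, IBR_S63845, BTZ_CLF, BTZ_YM155 and BTZ_S63845. YM155 targets survivin expression and S63845 inhibits MCL-1. The design text speaks of a PI and a BTKi without tying them to a code, so CON, CLF, IBR and BTZ, and the suffixes P and VR, are used here only as written, with CON taken as untreated. The labels name no stroma or vessel wall cells in the cultures.

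Mantle cell lymphoma cells circulate early and settle in lymph node, spleen, marrow and gut. Chemokine receptors steer that traffic: CXCR4 reads CXCL12 in marrow and germinal centre dark zones, CXCR5 reads CXCL13 in follicles, and CCR7 reads CCL19 and CCL21 in the T cell zone. S1PR1 reads the lipid sphingosine-1-phosphate and lets cells leave tissue, GPR183 (EBI2) reads an oxysterol at the follicle edge, and GPR18 is a G protein-coupled receptor of lymphocytes. ITGA4 encodes the α4 integrin chain, which joins β1 to bind VCAM-1 or the β7 chain encoded by ITGB7 to bind the gut addressin MAdCAM-1, and CD44 encodes a receptor for hyaluronan.

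Depth ranged from 5.52 to 21.6 M reads a library, with a median of 16 M. Levels are given in CPM, read counts scaled to the library total, and a floor of 3 reads corresponded to 0.139 to 0.543 CPM. The B cell genes CD79A (lowest library 19.7 CPM), MS4A1 (111 CPM) and PAX5 (12.0 CPM) and the mantle cell lymphoma genes CCND1 (148 CPM) and SOX11 (12.8 CPM) were present in all 56 libraries. Among markers of other cell types, the T cell genes CD2 and CD3E did not exceed 0.565 and 0.717 CPM, and CD3D reached 3.72 CPM in JEKO-1 with under 3 reads in 51 of 56 libraries. The monocyte genes CD14, LYZ and CSF1R reached 3.38, 11.4 and 1.67 CPM, with under 3 reads in 34, 37 and 50 libraries. The epithelial gene EPCAM lay between 0.526 and 20.8 CPM. COL1A1, a collagen gene of stromal cells, lay between 9.82 and 71.9 CPM in Z138 and between 0 and 26.3 CPM in the other lines, and its part in the values of Z138 was not tested. Mitochondrially encoded genes took 1.91 to 80.5% of a library. They took over 50% in 6 JEKO-1 libraries, namely replicates 1 and 2 of BTZ, of BTZ_CLF and of IBR_CLF. JEKO-1 BTZ replicate 3 stood apart from replicates 1 and 2, with 9.92% against 67.6 and 67.5%. Replicate numbers only name libraries. Pairs of libraries, 8 outside Z138 and 5 in Z138, carried like names apart from an added last letter, among them IBR replicates 1 and 2, and nothing in the labels says that they were separate cultures, so p-values measure the spread between these libraries. As alternatives, the 8 pairs were averaged, and, added after the values were seen, all 13. In both MINO lines the CON, CLF, BTZ and BTZ_CLF libraries, 8 in all, carried the series name HK, and every other library the name MCL.

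Divided by exon length, the 9 genes spanned a wide range. The median over the 56 libraries was 125 CPM per kb for CXCR4 and 57.4 for CCR7. It was 10.2 for GPR18, 8.05 for CD44, 6.19 for CXCR5 and 5.75 for ITGA4. GPR183 (3.83), S1PR1 (3.64) and ITGB7 (1.47 CPM per kb) were lowest. All 9 passed the filter on low values (at least 1 CPM in 2 libraries) and were tested in every fit. Changes are differences of log2(CPM + 1), which understates the change of low genes, with adjusted p-values from limma over all genes tested, and a gene is called changed where that p is under 0.05. In bulk RNA, fewer expressing cells and less RNA per cell cannot be told apart.

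**Figure D1:**
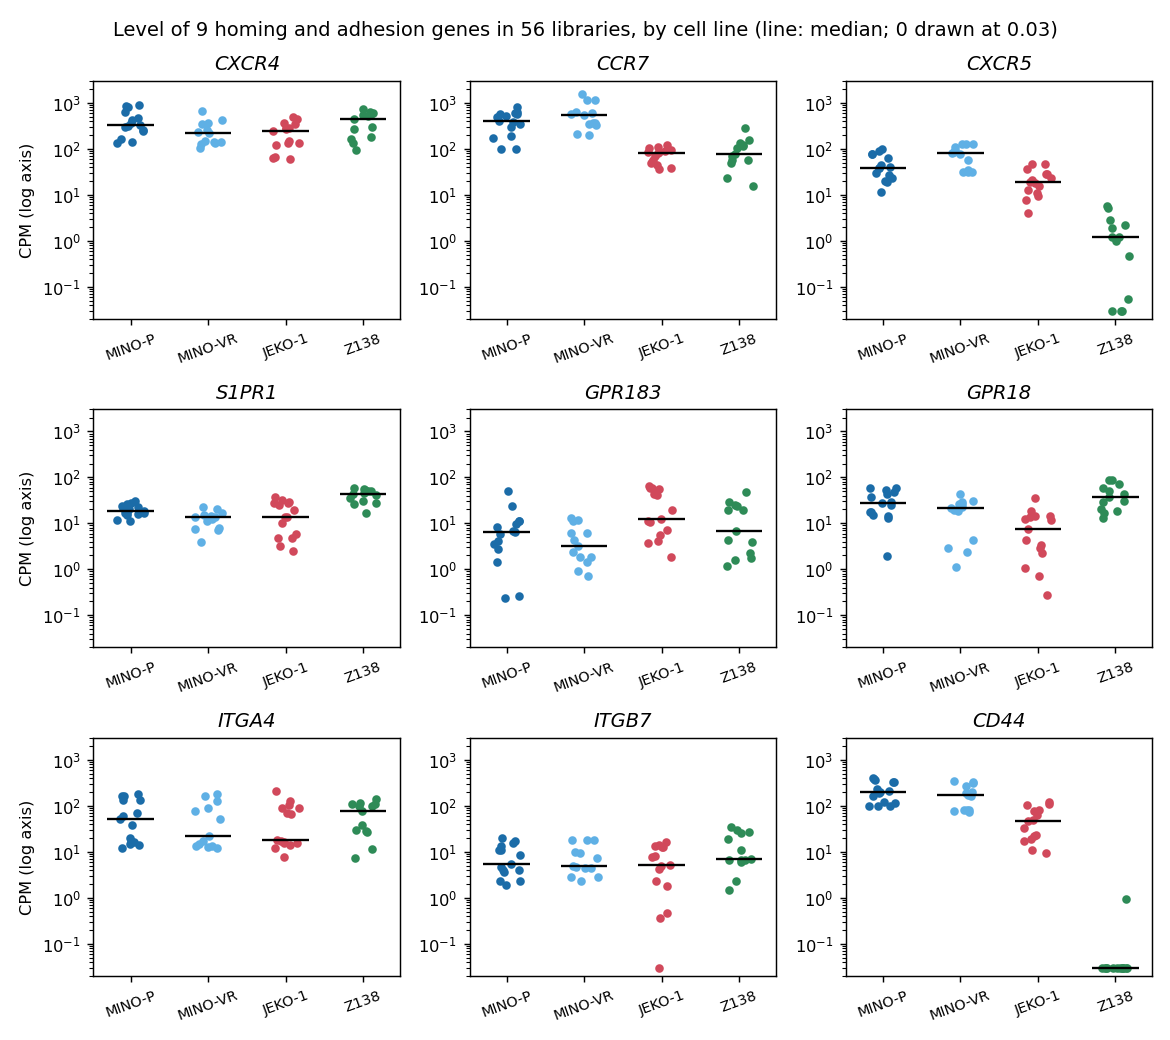
CPM of each gene (log axis) in the libraries of 4 cell lines, 1 point a library over all treatments, with the median as a line and libraries at 0 drawn at 0.03. CD44 was at 0 in 12 of 13 Z138 libraries, CXCR5 was lowest in Z138, and CCR7 was lower in JEKO-1 and Z138 than in both MINO lines.

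The lines differed most in CD44, CXCR5 and CCR7. CD44 (chromosome 11, 35138882 to 35232403, plus strand, in the deposited hg38 coordinates) was listed at 0 in 12 of 13 Z138 libraries, and only Z138 BTZ held reads, 19 of them or 0.931 CPM. In MINO-P it lay between 97.6 and 394 CPM with a median of 198. In MINO-VR it lay between 72.7 and 351 CPM with a median of 170, and in JEKO-1 between 9.18 and 120 CPM with a median of 46.4. No library of another line reached down to Z138. Against the highest 3-read floor of the 12 Z138 libraries without BTZ, the lowest library was at least 420.8-fold higher in MINO-P, at least 313.2-fold higher in MINO-VR and at least 39.6-fold higher in JEKO-1. JEKO-1 stood between, 2.35 log2 units below MINO-P (SE 0.24, limma adjusted p = 1.65e-11) and 1.84 below MINO-VR (SE 0.25, limma adjusted p = 3.66e-08).

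CXCR5 (chromosome 11, 118883892 to 118897788, plus strand) followed the order MINO-VR, MINO-P, JEKO-1, Z138. Its medians were 79.7 CPM in MINO-VR, 39.3 in MINO-P, 19.0 in JEKO-1 and 1.22 in Z138. The 13 Z138 libraries ran from 0 to 5.61 CPM, with at most 92 reads, and 4 of them were at or under the floor. Every MINO-P library (lowest 11.7 CPM) and every MINO-VR library (lowest 30.8 CPM) lay above all of Z138, whereas the lowest JEKO-1 library, at 4.03 CPM, overlapped it. Z138 was 4.22 log2 units below MINO-P (SE 0.28, limma adjusted p = 2.59e-18), 4.93 below MINO-VR (SE 0.30, adjusted p = 6.23e-20) and 3.55 below JEKO-1 (SE 0.26, adjusted p = 3.74e-17). JEKO-1 was 1.39 below MINO-VR (limma adjusted p = 0.00022), while its difference of -0.68 from MINO-P was not called (limma adjusted p = 0.063). Exons of CXCR5 overlap 3925 bases of the opposite-strand gene BCL9L, and strand use in the counting is not given in the sources used here. BCL9L ran from 9.57 to 36.8 CPM in Z138, above CXCR5 there, and within lines the correlation of CXCR5 with it over 56 libraries was 0.08.

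CCR7 (chromosome 17, 40551081 to 40565473, minus strand) divided the MINO lines from the others. Its median was 398 CPM in MINO-P and 542 CPM in MINO-VR against 83.1 in JEKO-1 and 79.3 in Z138. JEKO-1 was 2.34 log2 units below MINO-P (SE 0.32, limma adjusted p = 2.8e-08), and Z138 was 2.0 below it (SE 0.31, adjusted p = 4.24e-07). Against MINO-VR the differences were -2.67 for JEKO-1 (limma adjusted p = 2.54e-09) and -2.32 for Z138 (adjusted p = 4.92e-08). The ranges still met, since MINO-P reached down to 98.9 CPM and Z138 up to 289 CPM. JEKO-1 and Z138 did not differ by the test, with Z138 higher by 0.34 (limma adjusted p = 0.298).

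The other receptors moved in single lines. S1PR1 (chromosome 1, 101236865 to 101243714) had its highest median over all treatments in Z138, 43.8 CPM against 18.6 in MINO-P, 13.4 in MINO-VR and 13.8 in JEKO-1. The mix of treatments differs between lines. In CON alone the Z138 mean was 31.0 CPM, close to 30.6 in MINO-P and 29.8 in JEKO-1, with 7.12 in MINO-VR. Z138 exceeded MINO-VR by 1.53 log2 units (SE 0.35, limma adjusted p = 0.000431) and JEKO-1 by 1.57 (SE 0.30, adjusted p = 1.81e-05). Its difference of 0.79 from MINO-P was not called (limma adjusted p = 0.0577). KLF2, the transcription factor that drives S1PR1 in lymphocytes, had its highest median in Z138 as well, 57.5 CPM against 26.9 in MINO-P, 12.2 in MINO-VR and 9.40 in JEKO-1. KLF2 was 2.02 log2 units higher in Z138 than in MINO-VR (limma adjusted p = 2.11e-05) and 2.08 higher than in JEKO-1 (adjusted p = 3.77e-07). It was named after its values were seen, and its part in S1PR1 was not tested. It comes from a list of 29 signalling and switch genes. Of these, 2 were higher and 18 lower in Z138 than in MINO-VR, where 21.9% of all genes were higher and 16.8% lower. Against JEKO-1, 9 were higher and 10 lower, where 40.4% of all genes were higher and 17.1% lower.

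GPR18 was lowest in JEKO-1, with a median of 7.53 CPM against 27.3 in MINO-P, 21.7 in MINO-VR and 38.2 in Z138. JEKO-1 was 2.17 log2 units below MINO-P (SE 0.41, limma adjusted p = 2.49e-05) and 1.55 below MINO-VR (SE 0.42, adjusted p = 0.00283). Z138 was 2.0 above JEKO-1 (SE 0.36, limma adjusted p = 5.17e-06). CXCR4 had medians of 337 CPM in MINO-P, 220 in MINO-VR, 243 in JEKO-1 and 440 in Z138. JEKO-1 was 1.21 below MINO-P (SE 0.33, limma adjusted p = 0.00306). In CON alone, with 1 library each, JEKO-1 was the higher, at 437 CPM against 303 in MINO-P. Z138 was 0.68 above JEKO-1 (limma adjusted p = 0.0437), a call lost in 27 of 69 alternatives, 18 of them single libraries left out, with 0.15 once mitochondrial genes were left out (adjusted p = 0.645), 0.48 with all 13 pairs averaged (adjusted p = 0.282) and 0.50 without Z138 IBR_CLF replicate 1 (adjusted p = 0.124).

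ITGA4, ITGB7 and GPR183 were called in no contrast between lines on the deposited scale. Median ITGA4 was 51.8 CPM in MINO-P, 22 in MINO-VR, 18.3 in JEKO-1 and 78.9 in Z138, and values ran from 7.27 to 215 CPM across treatments. Fitted line differences of ITGA4 lay between -0.29 and -0.01 log2 units. GPR183 was 1.19 higher in JEKO-1 than in MINO-VR (limma adjusted p = 0.0836) and became called with mitochondrial genes left out (1.57, adjusted p = 0.0135). The same scaling called it higher in JEKO-1 than in MINO-P (1.26, adjusted p = 0.0415) and lower in Z138 than in JEKO-1 (-1.39, adjusted p = 0.00684). Size factors called all 3 contrasts as well (adjusted p = 0.0129, 0.0401 and 0.00585). MINO-VR and MINO-P differed in 0 of the 9 genes, and the nearest to a call was CXCR5, 0.71 higher in MINO-VR (limma adjusted p = 0.0956). KLF2 was 1.16 lower in MINO-VR than in MINO-P (limma adjusted p = 0.02).

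Differences between lines were common throughout the transcriptome, and the counts above are read against that. Of all 16498 genes tested, 37.3% were called for JEKO-1 against MINO-P, where 4 of the 9 were called, and 37.6% for Z138 against MINO-P, with 3 of 9. The shares were 38.4% for JEKO-1 against MINO-VR (4 of 9), 38.7% for Z138 against MINO-VR (4 of 9) and 57.5% for Z138 against JEKO-1 (5 of 9). For MINO-VR against MINO-P the share was 5.57%, with 0 of 9. These counts of members are shares near the background.

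Upstream sequence is shown for 4 members that the values turn on: CD44 for its absence from Z138, ITGA4 for its fall under treatment, and CXCR4 and GPR183 because their levels followed each other most closely. Each run is the 250 bases before the RefSeq start on GRCh38.p14, printed 5′ to 3′ on the gene's own strand. Capitals mark matches on either strand to CACCC (the box bound by KLF-type factors), GAANNTTC (a heat-shock-element core), TGACNNNGC (an antioxidant-response-element core) or ATGCAAAT (the octamer), where N is any base. The CD44 window lies at chr11:35138921-35139170 and that of ITGA4 at chr2:181457136-181457385, both on the plus strand. The CXCR4 window (the farthest upstream of its 3 RefSeq starts) lies at chr2:136118150-136118399 and that of GPR183 at chr13:99307400-99307649, both on the minus strand. RefSeq starts can differ from the deposited ones. The CD44 and CXCR4 windows lie inside the deposited genes (CXCR4 from 136114349 to 136119178), and the ITGA4 window runs past its deposited start at 181457202.
CD44: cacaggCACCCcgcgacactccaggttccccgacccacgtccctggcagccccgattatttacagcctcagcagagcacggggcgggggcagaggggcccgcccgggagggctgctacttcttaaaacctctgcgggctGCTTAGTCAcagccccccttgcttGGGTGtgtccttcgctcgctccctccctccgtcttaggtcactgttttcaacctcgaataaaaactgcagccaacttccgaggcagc
ITGA4: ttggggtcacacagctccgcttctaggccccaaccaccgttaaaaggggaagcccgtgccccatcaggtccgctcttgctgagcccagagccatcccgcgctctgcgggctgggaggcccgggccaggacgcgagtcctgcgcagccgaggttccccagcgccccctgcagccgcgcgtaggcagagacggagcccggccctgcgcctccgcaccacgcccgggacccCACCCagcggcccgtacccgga
CXCR4: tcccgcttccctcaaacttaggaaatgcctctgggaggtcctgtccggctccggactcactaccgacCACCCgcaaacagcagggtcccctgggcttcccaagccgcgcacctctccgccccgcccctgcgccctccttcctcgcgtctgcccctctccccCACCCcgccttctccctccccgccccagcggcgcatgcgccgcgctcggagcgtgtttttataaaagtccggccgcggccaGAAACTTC
GPR183: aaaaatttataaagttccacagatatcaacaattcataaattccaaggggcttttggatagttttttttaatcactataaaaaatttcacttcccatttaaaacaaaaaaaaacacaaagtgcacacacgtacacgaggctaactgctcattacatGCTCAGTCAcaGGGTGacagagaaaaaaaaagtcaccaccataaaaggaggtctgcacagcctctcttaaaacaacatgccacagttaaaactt
CACCC was present in all 4 printed windows, and in 54.7% of 35116 promoter windows of the same length. TGACNNNGC was present in CD44 and GPR183 and in 10.9% of all windows, and GAANNTTC in CXCR4 and in 5.78%. ATGCAAAT, held by 1.63% of windows, occurred in none of the 4. ITGA4 and CXCR4 had GC-rich windows, 72.8 and 68.0% with 25 and 24 CpG, whereas GPR183 had 34.4% and 2 CpG. The other 2 CXCR4 windows, not printed, lie at chr2:136117870-136118119 and chr2:136116236-136116485. Both held CACCC and neither held GAANNTTC, and the first of them held 2 matches to TGACNNNGC. CXCR4 and GPR183, the closest pair by level, shared CACCC in every CXCR4 window and TGACNNNGC in 1 of the 3. That was not particular to the pair, since S1PR1 and CD44 also held matches to both. The within-line correlation of CD44 with CXCR4 was -0.26, and a tie between matches and levels was not tested. Of the 9 genes, 8 had a promoter entry, with CCR7 the exception.

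Under BTZ, 5 of the 9 genes passed the test across the 4 lines, 4 lower (CXCR5, GPR18, ITGA4 and ITGB7) and CD44 higher. The share of all genes called in this contrast was 24%, and 22.3% were lower. With all 13 like-named pairs averaged, CXCR5 and ITGB7 stayed called, and ITGA4 (-1.70, adjusted p = 0.0521), GPR18 (-1.26, adjusted p = 0.14) and CD44 (0.84, adjusted p = 0.105) did not. The median change was -0.92 log2 units over the 9 genes and -0.42 over all genes tested. Without mitochondrial genes these medians were -0.54 and -0.17, and with size factors -0.38 and -0.07, and the direction of the 5 genes was the same under both scalings. CON libraries had 1.91 to 3.92% mitochondrial values and BTZ libraries 4.11 to 67.6%, and its part in these changes was tested only through those scalings and by leaving libraries out.

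CXCR5 fell in the most regular way. Its CON values were 90.1 CPM in MINO-P, 129 in MINO-VR, 47.0 in JEKO-1 and 5.21 and 2.22 in Z138. Its BTZ values were 29.4 CPM in MINO-P, 79.7 in MINO-VR, 7.55, 11.1 and 19.0 in JEKO-1 and 0 in Z138. All 6 BTZ libraries lay below every CON library of their own line. The fall was 1.68 log2 units (SE 0.40, limma adjusted p = 0.00142), and the call was kept in all 71 alternatives.

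ITGA4 was 166 CPM in MINO-P CON, 168 in MINO-VR CON, 126 in JEKO-1 CON and 101 and 142 in Z138 CON. With BTZ it was 68.6 CPM in MINO-P, 52.6 in MINO-VR and 11.3 in Z138, and in JEKO-1 it was 15.2, 13.8 and 215. Of the 6 BTZ libraries 5 lay below CON, and JEKO-1 replicate 3 lay above. ITGA4 fell by 1.88 log2 units (SE 0.57, limma adjusted p = 0.0116). The call was lost without the Z138 line (-1.56, adjusted p = 0.0726) and without the 6 libraries over 50% mitochondrial (-1.38, adjusted p = 0.109), and without JEKO-1 BTZ replicate 3 the value was -2.41 (adjusted p = 0.000333).

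ITGB7 (chromosome 12, 53191323 to 53207283, minus strand) was 17.0 CPM in MINO-P CON, 17.8 in MINO-VR CON, 14 in JEKO-1 CON and 18.7 and 2.34 in Z138 CON. With BTZ it was 3.97 CPM in MINO-P, 4.42 in MINO-VR, 1.81, 0.362 and 0 in JEKO-1 and 6.67 in Z138. The groups were separate in the MINO lines and JEKO-1 and overlapped in Z138. ITGB7 fell by 1.93 log2 units (SE 0.52, limma adjusted p = 0.00481), a call lost with JEKO-1 left out (-1.01, adjusted p = 0.276). Exons of ITGB7 overlap 1886 bases of the opposite-strand gene ZNF740, whose reads cannot be told apart without strand, and the within-line correlation of the pair over 56 libraries was 0.55.

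GPR18 fell by 1.47 log2 units under BTZ (SE 0.55, limma adjusted p = 0.0445). It went from 60.1 to 27.3 CPM in MINO-P and from 20.0 to 4.37 in MINO-VR. In JEKO-1 it went from 14.6 to 0.278 (2 reads, under the floor), 1.09 and 36.1, and in Z138 from 70.5 and 29.5 to 20.6 CPM. JEKO-1 replicate 3 was again the 1 library above CON. This call was the least firm of the 5, lost in 17 of 71 alternatives. These included mitochondrial genes left out (-1.32, adjusted p = 0.103), the 6 high-mitochondrial libraries left out (-0.64, adjusted p = 0.43) and any 1 of 7 libraries left out. Those 7 were CON replicate 1 of MINO-P, JEKO-1 or Z138 (adjusted p = 0.111, 0.112 and 0.0905), BTZ replicate 1 of MINO-VR, JEKO-1 or Z138 (adjusted p = 0.107, 0.149 and 0.0538) and BTZ replicate 2 of JEKO-1 (adjusted p = 0.116). Without JEKO-1 BTZ replicate 3 the change was -2.02 (adjusted p = 0.00143).

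CD44 was the 1 member called higher, by 1.00 log2 unit (SE 0.33, limma adjusted p = 0.0208). In JEKO-1 it went from 32.2 CPM to 120, 102 and 76.9, and in MINO-VR from 187 to 311. MINO-P went the other way, from 394 to 333 CPM, and Z138 from 0 to 0.931. The call was lost in 9 of 71 alternatives, among them array weights (0.47, adjusted p = 0.183), JEKO-1 left out (0.52, adjusted p = 0.148), and JEKO-1 CON replicate 1 (adjusted p = 0.0677) or JEKO-1 BTZ replicate 1 (adjusted p = 0.0591) left out. CCR7 lay above CON of its line in 5 of 6 BTZ libraries, as CD44 did. Its fitted change of 0.27 (SE 0.43) was not called (limma adjusted p = 0.689).

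**Figure D2:**
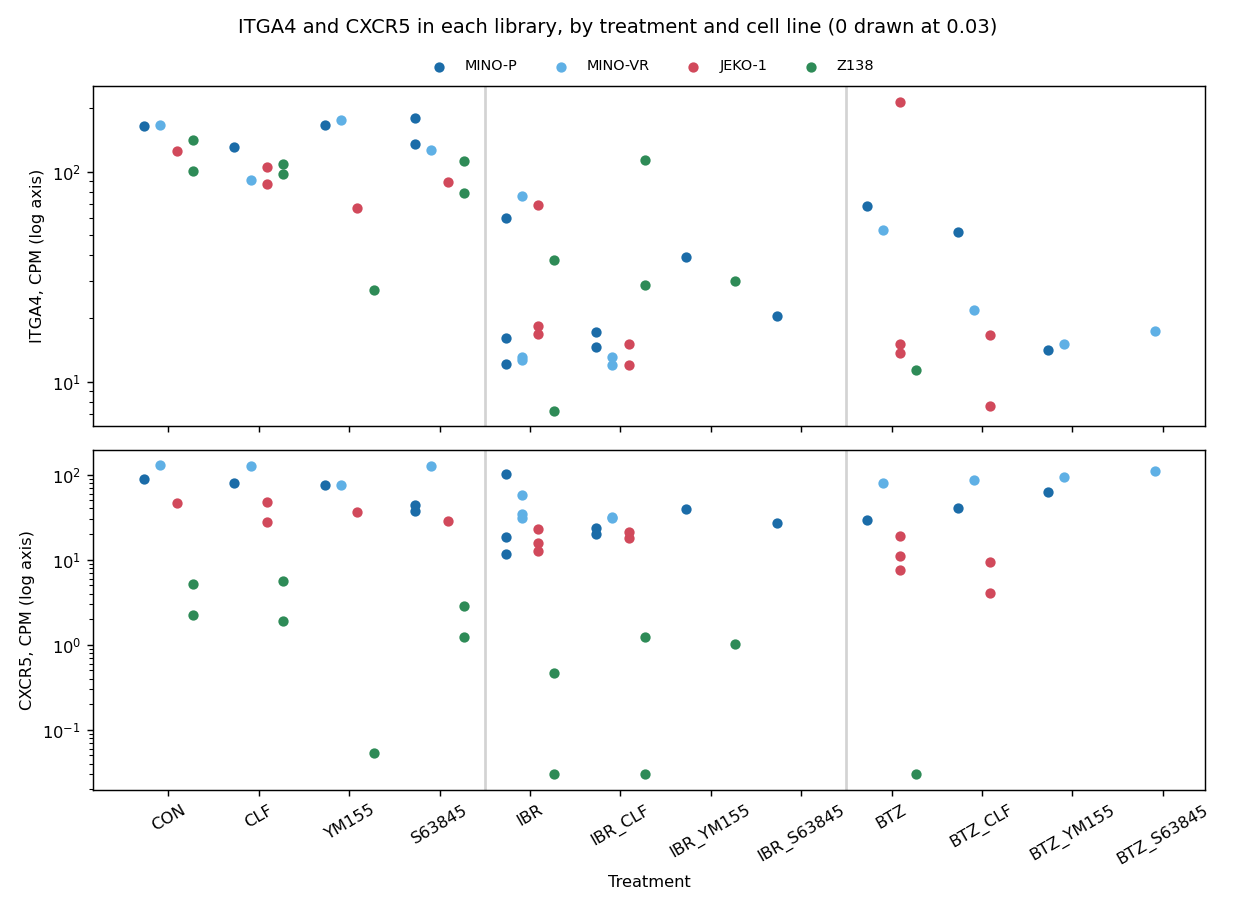
CPM of ITGA4 and CXCR5 (log axis) in each of the 56 libraries by treatment, coloured by cell line, with libraries at 0 drawn at 0.03. ITGA4 lay between 101 and 168 CPM in CON and at or below 76.8 CPM in all 11 IBR libraries, and JEKO-1 BTZ replicate 3 was the 1 BTZ library above CON, at 215 CPM.

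Under IBR, ITGA4 and CXCR5 fell and the other 7 genes were not called. The share of all genes called was 6.95%. The median change was -0.80 log2 units over the 9 genes against 0.02 over all genes tested. ITGA4 was 16.1, 12.2 and 59.9 CPM in MINO-P, 13.1, 12.7 and 76.8 in MINO-VR, 18.3, 16.9 and 69.7 in JEKO-1 and 7.27 and 38.1 in Z138. All 11 IBR libraries lay below every CON library of their line, and in each of the 3 lines with 3 IBR libraries replicate 3 was highest. The fall was 2.30 log2 units (SE 0.56, limma adjusted p = 0.00773). It was lost in 2 of 71 alternatives, with Z138 left out (-2.21, adjusted p = 0.0581) and with all 13 like-named pairs averaged (-2.06, adjusted p = 0.0915).

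For MINO-P and MINO-VR the CON libraries belong to the HK series and the IBR libraries to the MCL series, so there the series and the treatment cannot be told apart. A comparison within the MCL series, added after the values were seen, set IBR against S63845 in both MINO lines, where 6.92% of genes were called. ITGA4 was 135 and 181 CPM in MINO-P S63845 and 126 in MINO-VR S63845, above all 6 IBR libraries of those lines. The difference was -2.54 log2 units (SE 0.75, limma adjusted p = 0.0377). It was lost in 9 of 64 alternatives, and was -2.16 with the 8 or all 13 pairs of like-named libraries averaged (adjusted p = 0.294 and 0.565). Leaving out IBR replicate 1 or 2 of either line or either MINO-P S63845 library also ended the call (adjusted p = 0.0705 to 0.104). CD44 was lower as well (-0.88, SE 0.26, limma adjusted p = 0.0393), a call lost in 17 of 64 alternatives, with -0.81 when 8 or 13 pairs were averaged (adjusted p = 0.251 and 0.529). Any 1 of 12 libraries left out ended it too, among them the S63845 and the like-named IBR libraries of MINO-P (adjusted p = 0.0804 to 0.0961). ITGB7 just missed (-1.87, limma adjusted p = 0.0531).

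CXCR5 fell by 1.35 log2 units under IBR (SE 0.39, limma adjusted p = 0.0255). Its IBR values were 11.7, 18.7 and 102 CPM in MINO-P, 30.8, 34.5 and 57 in MINO-VR, 15.7, 12.8 and 22.8 in JEKO-1 and 0 and 0.471 in Z138. In 10 of 11 libraries it lay below CON, with MINO-P replicate 3 above. The call was lost in 7 of 71 alternatives, including Z138 left out (-0.84, adjusted p = 0.442), all 13 like-named pairs averaged (-1.20, adjusted p = 0.162), JEKO-1 CON replicate 1 left out (adjusted p = 0.0702) and either Z138 CON library left out (adjusted p = 0.12 and 0.0515). ITGB7 was below CON in 10 of 11 IBR libraries and CD44 in 9 of 11. For CD44 the other 2 were of Z138, where CON and IBR were both at 0 and no fall could show. The fitted changes of -0.80 for ITGB7 (limma adjusted p = 0.381) and -0.83 for CD44 (adjusted p = 0.108) were not called. CXCR4 split by line, below CON in 5 and above in 6 of 11 libraries (-0.58, limma adjusted p = 0.489). The 6 above were all of MINO-P and MINO-VR, whose CON libraries are of the other series. The 5 below were of JEKO-1 and Z138, where the series is the same.

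**Figure D3:**
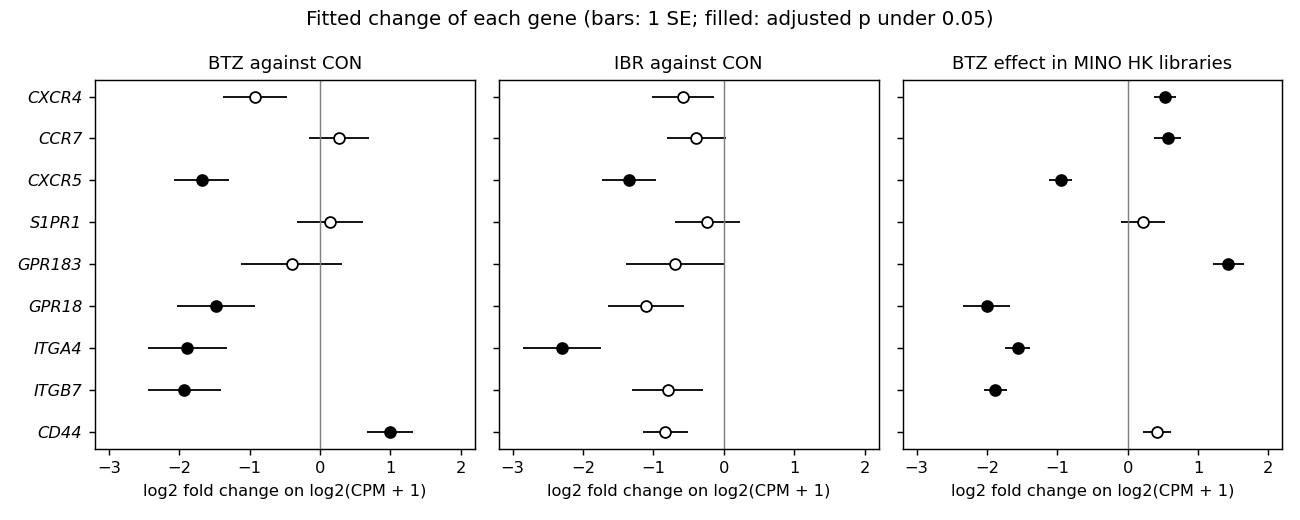
Fitted log2 change of each gene (x axis, on log2(CPM + 1)) with bars of 1 SE, for BTZ against CON and IBR against CON over 4 lines and for BTZ in the 8 MINO libraries of the HK series; filled points had an adjusted p under 0.05. ITGA4 and CXCR5 were below 0 and filled in all 3 panels, and CXCR4 and GPR183 were above 0 only in the MINO panel.

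BTZ was also compared within single lines. In the 8 MINO libraries of the HK series, 4 with BTZ and 4 without, 7 of the 9 genes were called, 3 higher and 4 lower, where 56.5% of all genes were called. Those without BTZ carry low HK numbers and those with BTZ a separate run of higher ones. The labels do not say what the numbers stand for, and number block and BTZ cannot be told apart here. GPR183 rose by 1.43 log2 units (SE 0.22, limma adjusted p = 0.0011). It was 3.49 and 1.40 CPM in MINO-P CON and CLF against 8.15 and 6.72 with BTZ and BTZ_CLF, and 0.937 and 1.47 against 6.12 and 4.40 in MINO-VR. CXCR4 rose by 0.53 (SE 0.16, limma adjusted p = 0.0204), from 303 and 242 to 363 and 259 CPM in MINO-P and from 137 and 126 to 257 and 228 in MINO-VR. CCR7 rose by 0.57 (SE 0.19, limma adjusted p = 0.0331). ITGB7 (-1.88, limma adjusted p = 8.2e-05) and ITGA4 (-1.56, adjusted p = 0.00027) fell, as did GPR18 (-2.0, adjusted p = 0.00149) and CXCR5 (-0.95, adjusted p = 0.00171). For GPR183, ITGB7, GPR18, ITGA4 and CXCR5 the groups were separate within each line, and CXCR4 overlapped in MINO-P. The CXCR4 call was lost without any 1 of the 4 MINO-VR libraries (adjusted p = 0.0508 to 0.0746), and the CCR7 call in 8 of 14 alternatives, with 0.38 (adjusted p = 0.0999) without MINO-VR BTZ_CLF.

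In JEKO-1, where 21.6% of genes were called for BTZ, ITGB7 fell by 3.26 log2 units (SE 1.05, limma adjusted p = 0.0341) and CD44 rose by 1.58 (SE 0.53, adjusted p = 0.0411). Of all genes, 2967 to 7795 were called in this contrast with 1 library left out at a time, against 3390 of 15719 with all kept. The values depended on JEKO-1 BTZ replicate 3, and 7 of 9 genes were called without it. Then ITGA4 (-3.03, adjusted p = 0.00652), GPR18 (-3.26, adjusted p = 0.00165) and GPR183 (-2.93, adjusted p = 0.0239) were lower. CXCR5 (-2.24, adjusted p = 0.0121), CXCR4 (-1.78, adjusted p = 0.0178) and ITGB7 (-2.94, adjusted p = 0.026) were lower too, and CD44 was higher (1.75, adjusted p = 0.00791). The 2 libraries that remain are a like-named pair with 67.6 and 67.5% mitochondrial values. With mitochondrial genes left out and all 3 libraries kept, 0 of 9 and 1.08% of all genes were called. ITGB7 was then at -2.66 (adjusted p = 0.291) and CD44 at 2.67 (adjusted p = 0.057). Without JEKO-1 BTZ replicate 2, ITGB7 was -3.16 (adjusted p = 0.0571). The CD44 call was lost in 18 of 36 alternatives, with 1.60 at a pseudocount of 0.25 (adjusted p = 0.0931), 1.43 without BTZ replicate 1 (adjusted p = 0.0856) and 1.55 without replicate 2 (adjusted p = 0.0678). It was also lost without any 1 of 11 libraries that enter only through the shared spread.

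In Z138, where 2.05% of genes were called, CXCR4 fell by 2.90 log2 units (SE 0.70, limma adjusted p = 0.0387), from 755 and 645 CPM to 92.8 CPM in the single BTZ library. The call was lost in 12 of 36 alternatives, and the value was -2.78 (adjusted p = 0.15) or -3.01 (adjusted p = 0.141) without CON replicate 1 or 2, and 8 of the others were single libraries that enter only through the shared spread. CXCR4 thus lay above CON in both MINO BTZ libraries and below CON in all 4 of JEKO-1 and Z138. The difference in BTZ response between the MINO lines and JEKO-1 with Z138, a test added after the values were seen, was 2.74 log2 units for CXCR4 (SE 0.67, limma adjusted p = 0.0797) and was not called for any of the 9, with 0.321% of genes called. It passed without JEKO-1 BTZ replicate 3 (2.92, adjusted p = 0.00882) and without MINO-P IBR replicate 3 (adjusted p = 0.0459) or either Z138 IBR_CLF library (adjusted p = 0.0491 and 0.0492). The MINO libraries of this test are of the HK series and the others of the MCL series, so series and line cannot be told apart in it. Between Z138 and JEKO-1 the BTZ responses gave 0 called members and 0% of genes called.

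A further BTZ comparison within the MCL series of the MINO lines set BTZ_YM155 against YM155, also added after the values were seen. CXCR4 was 624 CPM in MINO-P and 661 in MINO-VR with YM155, against 168 and 106 with BTZ_YM155. The fall was 2.26 log2 units (SE 0.51, limma adjusted p = 0.0234), with 1.5% of genes called, and was lost with 8 or 13 like-named pairs averaged (adjusted p = 0.123 and 0.337). Here CXCR4 was lower with BTZ in the same lines in which it was higher with BTZ in the HK series, and that difference was not tested. ITGA4 went from 166 to 14.1 CPM in MINO-P and from 177 to 15.0 in MINO-VR (-3.47, limma adjusted p = 0.0854), and GPR18 from 42.7 to 1.90 and from 26.7 to 2.89 CPM (-3.37, adjusted p = 0.0638). Both passed without JEKO-1 BTZ replicate 3 (adjusted p = 0.00752 and 0.000567), which enters this fit only through the shared estimate of spread. GPR18 also passed without JEKO-1 BTZ replicate 1 (adjusted p = 0.0321).

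IBR called 0 members in JEKO-1 alone (0.331% of genes) and 0 in Z138 alone (0.312%), and the difference between these lines called 0 members and 0% of genes. In Z138, the changes of ITGA4 (-2.75, SE 1.03, limma adjusted p = 0.302) and CXCR4 (-1.78, SE 0.57, adjusted p = 0.199) passed without JEKO-1 BTZ replicate 3 (adjusted p = 0.0271 and 0.0394), again through the shared spread.

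CLF added to IBR went with lower CXCR4 and GPR183 in 3 lines. CXCR4 was 320, 337 and 837 CPM with IBR and 139 and 131 with IBR_CLF in MINO-P. It was 354, 357 and 426 against 140 and 144 in MINO-VR, and 243, 282 and 375 against 62 and 60.04 in JEKO-1. All 6 IBR_CLF libraries of these lines lay below all IBR libraries of their line, whereas in Z138 the values overlapped, at 133 and 307 with IBR and 528 and 182 with IBR_CLF. GPR183, from 4.13, 2.71 and 51.5 to 0.242 and 0.260 CPM in MINO-P, showed the same order in the 3 lines and overlapped in Z138. Over 4 lines the changes were -1.26 for CXCR4 (SE 0.34, limma adjusted p = 0.231) and -1.69 for GPR183 (SE 0.55, adjusted p = 0.403), and 0 members were called, with 0.0121% of genes called. With Z138 left out both passed, CXCR4 at -1.80 (adjusted p = 0.00723) and GPR183 at -2.53 (adjusted p = 0.0193), and CXCR4 also passed without Z138 IBR_CLF replicate 1 (-1.53, adjusted p = 0.0298).

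The difference of this response between the 3 lines and Z138, added after the values were seen, was -2.41 for CXCR4 (SE 0.58, limma adjusted p = 0.218), with 0 members and 0.0424% of genes called. It passed without Z138 IBR replicate 2 (-3.01, adjusted p = 0.0185), Z138 IBR_CLF replicate 2 (-3.17, adjusted p = 0.0439) or JEKO-1 BTZ replicate 3 (-2.41, adjusted p = 0.048). CCR7 kept the same order as CXCR4, lower with IBR_CLF without overlap in the 3 lines other than Z138 (-0.67 over 4 lines, limma adjusted p = 0.535). GPR18 was lower without overlap in MINO-P and MINO-VR and higher without overlap in Z138. S1PR1 was lower without overlap in MINO-P and JEKO-1, and ITGA4 and ITGB7 in JEKO-1. How many of all genes separated in this way was not counted, so the orders of CXCR4, GPR183 and CCR7 are descriptions. GPR18 and CD44 went the other way in JEKO-1, GPR18 from 2.26, 2.84 and 4.42 to 12.6 and 14 CPM and CD44 from 10.7, 9.18 and 17.4 to 46.4 and 49.6. Both JEKO-1 IBR_CLF libraries had about 60% mitochondrial values (60.7 and 59.1%), against 20.9, 19.9 and 13.5% in JEKO-1 IBR. CPM is scaled to the library total, so a larger mitochondrial share lowers the CPM of the other genes. Its part in the JEKO-1 order of CXCR4, GPR183 and CCR7, and in GPR18 and CD44, was not tested line by line.

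Another 6 treatment contrasts called 0 of the 9 genes. The share of genes called was 0.273% for YM155 against CON, 0% for CLF against CON and 0% for S63845 against CON. It was 0% for BTZ_CLF against BTZ, 0% for IBR_YM155 against IBR and 0.921% for BTZ_YM155 against BTZ. YM155 brought CXCR4 to 163 CPM in Z138 and 134 in JEKO-1, below CON, against 624 and 661 CPM in the MINO lines, above CON of the other series (-0.68 over 4 lines, SE 0.53, limma adjusted p = 0.626). CXCR5 was below CON in 4 of 4 YM155 libraries (-0.57, SE 0.46, limma adjusted p = 0.649). For S63845 the fitted ITGA4 change was -0.04 (SE 0.61) and for CLF -0.37 (SE 0.56), neither called (limma adjusted p = 1). BTZ_S63845 and IBR_S63845 had 1 library each, and no contrast was fitted for them. CCR7 was 1537 CPM in MINO-VR BTZ_S63845, its highest value in the 56 libraries, against 542 CPM in MINO-VR BTZ, which belongs to the HK series. In MINO-P it was 398 CPM with IBR_S63845 against 170 to 394 with IBR. ITGA4 was low in both, at 17.3 CPM with BTZ_S63845 and 20.4 with IBR_S63845.

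GPR183 and GPR18 are neighbours on chromosome 13 (99294539 to 99307400 and 99254732 to 99261745, both minus strand), 32793 bases apart, and both lie within UBAC2 on the opposite strand, with 0 bases of shared exon. Their levels were only loosely tied, with a within-line correlation of 0.42 over 56 libraries, and each correlated with UBAC2 at a like level (0.47 for GPR183 and 0.50 for GPR18). GPR183 followed CXCR4 instead, at r = 0.86. CXCR4 was the gene nearest to GPR183 and GPR183 the gene nearest to CXCR4 among 16497 compared, on log2(CPM + 1) after the mean of each line was removed. These libraries share lines, treatments, depth and mitochondrial share, so all correlations are descriptions.

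**Figure D4:**
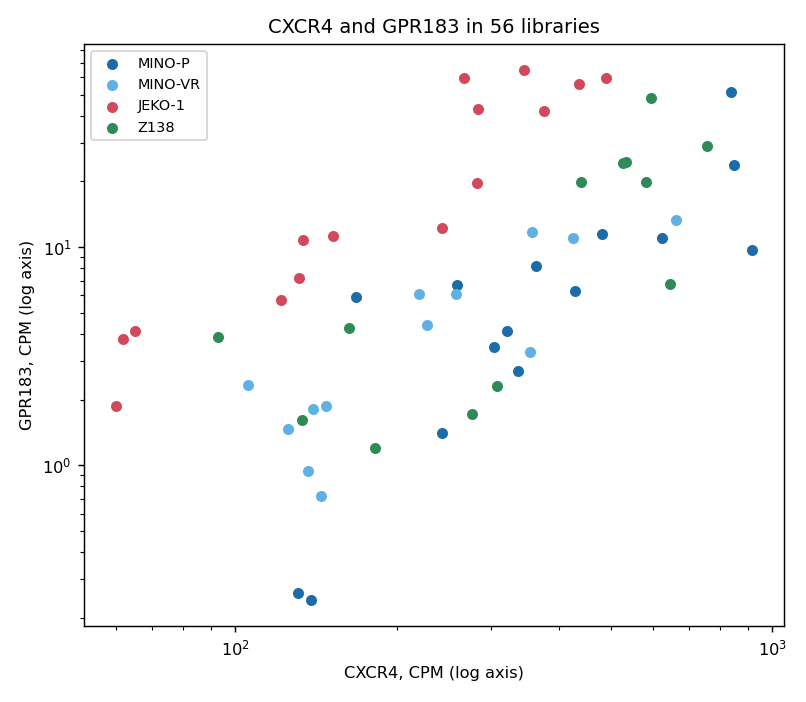
CPM of GPR183 against CPM of CXCR4 (both log axes) in 56 libraries, coloured by cell line. The 2 genes rose and fell together within each line, and the lowest GPR183 values, 0.242 and 0.260 CPM, belonged to MINO-P IBR_CLF with CXCR4 at 139 and 131 CPM.

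The other members had different nearest genes. ITGA4 was nearest to TRAK1 (r = 0.93) and to PAX5 (r = 0.93), the B cell identity factor. GPR18 was nearest to MYB (0.85) and AFF3 (0.81), CXCR5 to MTHFD1 (0.84) and SLC43A3 (0.83), and ITGB7 to the kinase gene PTK2B (0.82) and UNC93B1 (0.81). CD44 was nearest to MOXD1 (0.79) and NCS1 (0.79), S1PR1 to CIPC (0.74) and ADD3 (0.73), and CCR7 to PLBD2 (0.73) and RAB36 (0.71). After CXCR4, GPR183 was nearest to ARPP21 (0.79), and after GPR183, CXCR4 was nearest to PRDM15 (0.80). Among the 36 pairs of members the median r was 0.36, from -0.31 to 0.86, with 31 positive. The integrin partners ITGA4 and ITGB7 correlated at 0.55.

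Other genes of the trafficking pathway were taken from 4 lists and show the setting of the members. Of 18 other receptors tested, 6 were lower and 0 higher under BTZ, with a list median of -0.64, against -0.42 over all genes. The lists' counts here are read against the 24% of all genes called, 22.3% lower. The receptors included S1PR4 (-2.17, limma adjusted p = 0.000632) and P2RY8 (-1.73, adjusted p = 0.000382), which holds B cells in germinal centres. Of 20 other adhesion genes, 9 were lower and 1 higher (median -0.77). ICAM1 (-2.37, limma adjusted p = 0.000494) and ICAM2 (-1.95, adjusted p = 0.000711), ligands of the integrin LFA-1, fell most, and ITGAX rose (1.36, adjusted p = 0.011). Of 29 signalling and switch genes, 11 were lower and 1 higher (median -0.75). CORO1A, an actin regulator needed for lymphocyte egress, fell by 3.31 (limma adjusted p = 3.36e-07), GRK2, the kinase that desensitizes these receptors, by 2.04 (adjusted p = 1.95e-06), and RGS1, which dampens their signal, rose by 2.01 (adjusted p = 0.00544). Of 8 tested genes for ligands and ligand enzymes, 0 were called.

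Under IBR 6.95% of all genes were called, 3.89% lower, and the median over all genes was 0.02. The list medians were -0.52 for receptors, -0.26 for adhesion genes and -0.39 for signalling and switch genes. No test compared the lists between the treatments. Of 18 receptors 1 was lower, near the share of all genes, the prostaglandin receptor gene PTGER4 (-1.94, limma adjusted p = 0.000629). Among the adhesion genes ITGB2, the β2 integrin chain, was lower (-1.23, limma adjusted p = 0.0367) and SELPLG was higher (1.82, adjusted p = 0.0111). Of 29 signalling and switch genes 4 were lower, led by CD69 (-2.24, limma adjusted p = 0.00089), whose product binds S1PR1 and removes it from the surface, and CORO1A (-1.95, adjusted p = 0.00212). S1PR1 itself was called under neither treatment (0.14 with BTZ, limma adjusted p = 0.857, and -0.23 with IBR, adjusted p = 0.829).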

How the data were processed

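Per the labels' protocols, RNA was extracted with QIAshredder columns and the RNeasy Mini kit, poly-A enriched and made into TruSeq v2 libraries. The submitters' processing notes name Partek and hg38; the aligner, counter and strand use are not given in the sources used here. The deposited values are log2(CPM + 1), read from the values themselves: with the log2 undone, each library summed to between 999984 and 1000010. Values under 1e-06 were set to 0, and 1 entry without a gene name (at most 0.000773% of a library) was left out. Depth was recovered from the steps of low CPM values, of which 77.7 to 89.5% were whole reads within 0.05, too few to treat as counts. Floors of 3 reads cover counting error only.

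Tests used limma 3.58.1 (R 4.3.3), with a mean-variance trend, on genes of at least 1 CPM in 2 libraries, with Benjamini-Hochberg adjustment over all genes tested. Contrasts over 4 lines came from 1 model of 56 libraries with treatment, line and library series (40 residual degrees of freedom). Those within JEKO-1 and Z138 came from 28 libraries with a mean for each line and treatment (12), and the MINO contrast from 8 HK libraries with line, BTZ and CLF (4). Comparisons described as added after the values were seen used a mean for each of 37 groups over 56 libraries (19). In these fits groups of 1 library are assumed to vary like the others. Scripts were tested on simulated data. The members and lists were chosen with earlier results of these data known. Named genes are the members, up to 2 called genes of each list with the largest rise and fall, and the 2 genes nearest to each member. KLF2 in the line contrasts and the genes overlapping a member were named after their values were seen. Promoter windows are from RefSeq (GRCh38.p14), and exon lengths from GENCODE 29. The result of 1 listed adhesion gene is not reported here.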

Additional observations from a re-analysis of the deposited data

How the results depend on the processing

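Counts of the 9 genes called moved by over 1.5 times as follows, and the cause was not tested. The share of all genes called also moves with the setting, so these counts are not read as particular to the 9 genes. For BTZ in JEKO-1 it was 21.6% on the deposited values, 1.08% without mitochondrial genes and 1.2% with size factors. For MINO-VR against MINO-P it was 5.57% on the deposited values and 8.64% with size factors. Shares under the other settings are not given here. For BTZ against CON (5), 3 were called with the 8 like-named pairs outside Z138 averaged (so below where pairs are averaged), and 2 with JEKO-1 left out, with Z138 left out or without libraries over 50% mitochondrial, the last chosen after seeing the data. For IBR against CON (2), 4 were called with array weights, 1 without MINO-P or without MINO-VR, and 0 without Z138. For IBR_CLF against IBR (0), 3 were called with array weights and 2 without Z138. For BTZ_YM155 against BTZ (0), 1 was called without the high-mitochondrial libraries. For MINO-VR against MINO-P (0), 1 was called with size factors and without the high-mitochondrial libraries, and 3 with array weights or without JEKO-1. For BTZ in JEKO-1 (2), 1 was called with a pseudocount of 0.25, with no filter, with size factors and without the high-mitochondrial libraries, 0 without mitochondrial genes or with pairs averaged, and 7 with array weights. For BTZ in Z138 (1), 3 were called with array weights, 0 with pairs averaged and 2 without the high-mitochondrial libraries. For IBR with array weights, 5 were called in JEKO-1 and 1 in Z138 (0 in both on the deposited values). Averaging all 13 like-named pairs, those of Z138 included, was added after seeing the data. It called 2 for BTZ against CON and 0 for IBR against CON, for BTZ in JEKO-1, for BTZ in Z138, for IBR against S63845 in MINO and for BTZ_YM155 against YM155 in MINO, and it leaves fewer libraries in each fit.

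Of the comparisons added after seeing the data, the BTZ difference between MINO and the other lines (0) called 1 with no filter or without the high-mitochondrial libraries and 4 with array weights. IBR against S63845 in MINO (2) called 1 with a pseudocount of 0.25, no filter, mitochondrial genes left out or size factors, 5 with array weights and 0 with pairs averaged. BTZ_YM155 against YM155 in MINO (1) called 3 without mitochondrial genes or without the high-mitochondrial libraries, 4 with array weights and 0 with pairs averaged.

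Leaving out 1 library at a time gave 3 to 5 called for BTZ against CON, 1 to 2 for IBR against CON, 0 to 1 for IBR_CLF against IBR, and 0 to 1 for MINO-VR against MINO-P. It gave 0 to 7 for BTZ in JEKO-1, 0 to 3 for BTZ in Z138 and 0 to 2 for IBR in Z138. It gave 0 to 1 for the BTZ difference between MINO and the other lines, 0 to 1 for the IBR_CLF difference between 3 lines and Z138, 0 to 4 for IBR against S63845 in MINO and 1 to 3 for BTZ_YM155 against YM155 in MINO. Over all genes, the same refits called 2455 to 5143 for BTZ against CON and 585 to 1506 for IBR against CON. They called 2967 to 7795 for BTZ in JEKO-1 and 24 to 1770 for BTZ in Z138. No called change reversed under any alternative run.

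The labels give no replicate numbers. A replicate block built from the final letter of the library names, which do not show a shared culture, called 5 genes for BTZ against CON and 2 for IBR against CON, and moved no count of called members by over 1.5 times. Depth limits CXCR5 in Z138, GPR183 in MINO-P IBR_CLF, and GPR18 and ITGB7 in JEKO-1 with BTZ, where libraries lay at, near or under 3 reads.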
